A study of Mus musculus with 101 samples.

Results

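Hox genes were described across 2 white fat depots of the mouse, epididymal and subcutaneous. All genes of both count tables whose symbol is Hox, a cluster letter from a to d and a number were taken, which gave 39 of 24475 genes: 11 of the HoxA cluster on chromosome 6, 10 of HoxB on chromosome 11, 9 of HoxC on chromosome 15 and 9 of HoxD on chromosome 2. The symbols chose the members, and no measured value did. The study sequenced messenger RNA of both depots from male C57BL/6NTac mice in 101 libraries, which the labels call biological replicates, to see what activin E (the dimer encoded by Inhbe, made mainly in liver) does in fat. In the vector experiment, wild-type mice on chow carried an adeno-associated virus (AAV8) for liver expression of mouse Inhbe (mInhbe) or of GFP, with 10 libraries of each per depot. In the knockout experiment, Inhbe knockout (KO) and wild-type (WT) mice ate either chow or HFD, a high-fat diet. There were 8 KO HFD, 8 WT HFD, 7 KO chow and 8 WT chow epididymal libraries, and 8 KO HFD, 7 WT HFD, 7 KO chow and 8 WT chow subcutaneous ones. The labels do not state ages, diet duration, the vector dose or the kind of KO allele.

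Hox genes encode homeodomain transcription factors that fix position along the body axis of the embryo. In each cluster the genes lie in the order of their use from head to tail, so that a low number marks an anterior and a high number a posterior paralog, and adult connective tissue and fat keep a pattern that reflects the site of origin. Members with the same number in different clusters are paralogs that descend from one ancestral gene and often act together with Pbx and Meis partner proteins.

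The proximal promoters of 4 HoxA and HoxD genes are shown as examples of different depot patterns: Hoxa5 was higher and Hoxa9 lower in epididymal fat, while Hoxa11 and Hoxd13 were close to 0 in every subcutaneous library. Each runs from 250 bases before to 50 bases after a transcription start, 5′ to 3′ on the gene's strand (RefSeq, GRCm38.p6). Capitals mark matches to CCAAT or TATAAA on either strand. The Hoxd13 run of capitals at its TATA box holds TATAAA once on each strand, overlapping.
Hoxa5, chr6:52204538-52204837, minus strand: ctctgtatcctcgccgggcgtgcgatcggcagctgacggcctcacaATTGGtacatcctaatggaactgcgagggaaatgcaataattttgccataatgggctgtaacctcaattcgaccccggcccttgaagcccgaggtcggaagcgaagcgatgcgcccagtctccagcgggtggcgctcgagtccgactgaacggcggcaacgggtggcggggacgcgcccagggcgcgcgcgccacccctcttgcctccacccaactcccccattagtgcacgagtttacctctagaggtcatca
Hoxa9, chr6:52227321-52227620, minus strand: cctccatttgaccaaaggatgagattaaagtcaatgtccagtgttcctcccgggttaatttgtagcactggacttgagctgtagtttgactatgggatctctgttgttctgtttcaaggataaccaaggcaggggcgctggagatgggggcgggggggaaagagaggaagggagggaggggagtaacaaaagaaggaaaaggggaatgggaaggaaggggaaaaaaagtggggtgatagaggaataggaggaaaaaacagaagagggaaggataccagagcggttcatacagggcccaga
Hoxa11, chr6:52245761-52246060, minus strand: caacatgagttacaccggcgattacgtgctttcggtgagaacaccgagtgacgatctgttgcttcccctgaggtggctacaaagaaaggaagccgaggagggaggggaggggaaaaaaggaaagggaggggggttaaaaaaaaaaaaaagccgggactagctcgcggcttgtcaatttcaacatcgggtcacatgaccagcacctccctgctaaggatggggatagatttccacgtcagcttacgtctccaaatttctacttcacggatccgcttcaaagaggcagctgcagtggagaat
Hoxd13, chr2:74667975-74668274, plus strand: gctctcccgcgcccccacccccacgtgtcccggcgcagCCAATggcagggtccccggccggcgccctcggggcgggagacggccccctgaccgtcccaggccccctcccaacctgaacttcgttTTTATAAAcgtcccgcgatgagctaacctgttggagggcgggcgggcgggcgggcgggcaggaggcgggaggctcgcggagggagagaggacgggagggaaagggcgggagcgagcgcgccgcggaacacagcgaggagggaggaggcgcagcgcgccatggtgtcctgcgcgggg
The CG dinucleotide occurred 29 times in the Hoxa5, 4 times in the Hoxa9, 15 times in the Hoxa11 and 37 times in the Hoxd13 window, against a median of 7 over 32851 RefSeq promoter windows of 300 bases. CCAAT was present in 15 of 24 windows of 22 Hox genes and in 37.4% of all windows, TATAAA in 4 of 24 and in 13.6%, and TGATNNAT, a site of the Hox-Pbx kind, in 4 of 24 and in 8.85%, each searched on both strands. A match describes these letters and no site was tested.

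The homeobox, the 180 bases that encode the DNA-binding homeodomain, is shown for the paralogs with number 10, because they lie at the same position of 3 clusters and had different depot patterns. Hoxa5 is added as a distant member. Capitals mark bases 142 to 165 of each homeobox, in the recognition helix (GENCODE M21 transcripts, GRCm38, 5′ to 3′ in the sense of the gene).
Hoxa10, chromosome 6: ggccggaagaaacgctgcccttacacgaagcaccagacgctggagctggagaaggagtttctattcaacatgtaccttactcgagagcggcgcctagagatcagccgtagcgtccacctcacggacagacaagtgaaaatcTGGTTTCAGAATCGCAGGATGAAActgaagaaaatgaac
Hoxc10, chromosome 15: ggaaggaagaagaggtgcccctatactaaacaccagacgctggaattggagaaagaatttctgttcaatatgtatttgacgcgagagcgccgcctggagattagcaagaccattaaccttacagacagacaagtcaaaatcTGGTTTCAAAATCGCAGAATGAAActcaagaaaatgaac
Hoxd10, chromosome 2: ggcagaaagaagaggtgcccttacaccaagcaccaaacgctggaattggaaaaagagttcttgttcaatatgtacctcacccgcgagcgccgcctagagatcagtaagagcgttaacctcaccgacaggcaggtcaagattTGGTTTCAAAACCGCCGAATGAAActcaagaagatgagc
Hoxa5, chromosome 6: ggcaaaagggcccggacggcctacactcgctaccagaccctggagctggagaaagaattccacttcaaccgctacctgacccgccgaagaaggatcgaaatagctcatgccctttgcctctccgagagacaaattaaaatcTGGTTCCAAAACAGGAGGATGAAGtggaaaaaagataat
The Hoxc10 homeobox was identical to that of Hoxa10 at 80.6%, of Hoxd10 at 82.8% and of Hoxa5 at 60.6% of bases. How reads shared by such paralogs were counted is not stated and was not tested. In the full GENCODE M21 annotation, exons of 16 Hox genes share bases with another gene. Of these, 9 do so with a gene on the same strand and 10 with one on the opposite strand. Hoxc5 with Hoxc10 and Hoxd3 with Hoxd4 overlap each other there. The RefSeq spans of Hoxc10 (102966796 to 102971898) and Hoxc5 (103014008 to 103017429) on chromosome 15 do not overlap. Where the counting used shared exons without strand or split transcripts, reads of such pairs cannot be told apart.

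Libraries held 13 to 20.2 times 1e+06 estimated counts, and 3 counts, the floor used here, equal 0.149 to 0.231 CPM (counts per 1e+06 of the library total). Inhbe itself had 4 to 232 counts in mInhbe epididymal and 35 to 846 in mInhbe subcutaneous libraries and 0 in all GFP libraries, while KO libraries held at most 1 count and WT libraries at most 5, so fat RNA could not check the knockout. The depot labels went with their markers: all 7 mesothelium genes tested were higher in epididymal fat in each of the 6 groups, and 12 or 13 of 13 lymph node genes were lower. In 4 subcutaneous libraries (WT chow 1 and WT HFD 1, 2 and 4) the lymph node list summed to only 5.86 to 11.8 CPM, against 307 to 1995 CPM in the other 46. Epididymal libraries differed widely in transcripts of the epididymis, the duct that adjoins this pad: the sum of 12 such genes ran from 0.516 to 29101 CPM. It was under 100 CPM in 13 of 51 libraries (GFP 7, KO chow 2, WT chow 2 and 4, KO HFD 1, 2, 4 and 5, and WT HFD 1, 4, 5, 6 and 8), with 71.7 CPM as the highest of them and 109 CPM as the lowest of the other 38. These 13, a set drawn from epididymis transcript and not a group of the study, are called low-epididymis libraries below. Tests of the KO experiment that use epididymal fat were also fitted without the others. The vector experiment had 1 low GFP library and 0 low mInhbe libraries, so no such fit was made and its results hold all libraries. Group means and cluster sums also hold all libraries. In bulk tissue, fewer cells of a type and less RNA per cell cannot be told apart.

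Most Hox genes were detected in both depots. A mean of at least 1 CPM was reached by 30 members in epididymal and by 27 in subcutaneous fat. Hoxc12 and Hoxc13 had 0 counts in epididymal fat, and Hoxc12, Hoxd12 and Hoxd13 had 0 counts in subcutaneous fat. Members that stayed under a mean of 1 CPM in both depots were Hoxa6, Hoxa13, Hoxb1, Hoxb13, Hoxc11, Hoxc12, Hoxc13, Hoxd1 and Hoxd12. The summed level of all Hox genes was 136 CPM at lowest, 269 at median and 357 at highest in the 13 low-epididymis libraries, 204, 499.5 and 725 CPM in the other 38 epididymal libraries, and 218, 279 and 465 CPM in the 50 subcutaneous libraries.

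Per kilobase of exon, Hoxc8 was the most abundant member in both depots. This paralog patterns the thoracic skeleton and has been described as a repressor of brown fat genes. In WT chow mice its level averaged 58.7 CPM per kb in epididymal and 42.7 CPM per kb in subcutaneous fat (n = 8 each). Hoxc6, another trunk gene, followed at 13.9 CPM per kb in epididymal and 13.5 in subcutaneous fat. The next levels differed by depot: Hoxd8 at 12.1, Hoxb7 at 9.06 and Hoxa5 at 7.74 CPM per kb came next in epididymal fat, and Hoxc10 at 12 (0.44 in epididymal fat), Hoxa9 at 5.55 and Hoxd8 at 5.36 CPM per kb in subcutaneous fat. These levels hold all 8 WT chow epididymal libraries, of which 2 were low-epididymis ones. With those 2 alone, the log2 fold change over subcutaneous fat was −0.04 for Hoxb7, 0.64 for Hoxd8 and 1.08 for Hoxa5. Hoxc8 made up 62 to 68.2% of the HoxC sum in epididymal and 52.4 to 60.1% in subcutaneous groups.

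Cluster sums per kilobase differed between the depots in ways that depended on the group of mice. In WT chow mice the HoxC sum was 87 ± 19.2 CPM per kb in epididymal and 78.6 ± 20.5 in subcutaneous fat (SD, n = 8 each), a difference within the spread. The HoxB sum was 43.3 ± 23.8 CPM per kb in epididymal and 18.4 ± 2.59 in subcutaneous fat, and the HoxD sum was 28.2 ± 15.6 and 12.5 ± 1.8 CPM per kb in the same order. Of the 8 WT chow epididymal libraries 2 were low-epididymis ones, and the part of epididymis RNA in these sums was not tested. In WT HFD mice the HoxC sum was 44.4 ± 10.3 CPM per kb in epididymal (n = 8) and 92.3 ± 32.4 in subcutaneous fat (n = 7), and the HoxA sum 11.9 ± 3.13 and 21 ± 2.51 CPM per kb in the same order. The HoxB sum of these mice was 21.8 ± 8.86 CPM per kb in epididymal and 17.7 ± 3.74 in subcutaneous fat, within the spread. In mInhbe epididymal fat the HoxB sum, 95.7 ± 37.2 CPM per kb, was above the HoxC sum of 69.4 ± 18.1, within the spread (n = 10). HoxA sums ran from 11.9 to 34.8 CPM per kb in epididymal and from 17.1 to 22.4 CPM per kb in subcutaneous groups.

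**Figure D1:**
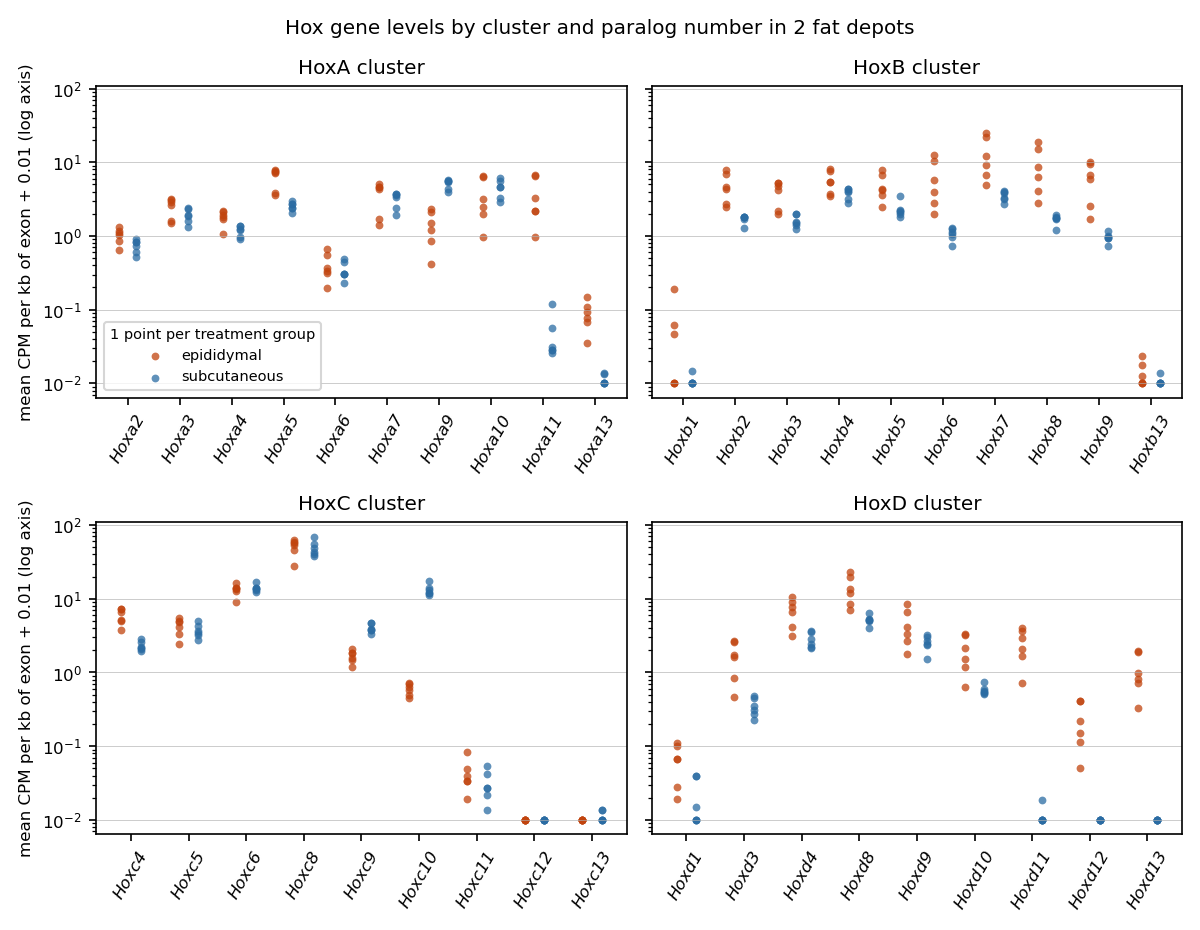
Mean level of Hox genes (CPM per kilobase of exon, log axis) plus 0.01 in each of the 12 groups, by paralog number from anterior to posterior, with 1 panel per cluster, 1 point per group and the depots in colour. Hoxc8 stands highest in both depots, Hoxc10 is higher in all subcutaneous groups, and Hoxa11, Hoxd11, Hoxd12 and Hoxd13 are higher in all epididymal groups.

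Of the posterior genes with number 9 or 10, Hoxc10, Hoxa9 and Hoxc9 were lower in epididymal than in subcutaneous fat in all 6 groups of mice. The others were not. In mInhbe mice their log2 fold changes, epididymal over subcutaneous with all libraries, were 3.47 for Hoxb9, 2.47 for Hoxd10, 1.53 for Hoxd9 and 1.14 for Hoxa10. Hoxc10, a lumbar patterning gene that in mouse subcutaneous fat has been described as a brake on browning, had 0.122 CPM at lowest, 0.762 at median and 2.29 at highest in WT chow epididymal libraries, against 19, 21.2 and 34.7 CPM in WT chow subcutaneous libraries. Over the whole series the 51 epididymal libraries reached at most 2.69 CPM and the 50 subcutaneous ones were never below 18.5 CPM, so that the depots did not overlap. The log2 fold change, epididymal over subcutaneous, was −4.74 ± 0.37 (SE; adjusted p = 1.4e-15, edgeR's quasi-likelihood test with Benjamini-Hochberg adjustment over all genes, as for every adjusted p here) in WT chow and lay between −4.87 and −4.02 in the 6 groups. In low-epididymis libraries alone it was −4.21 ± 0.55 in WT chow, −5.35 ± 0.43 in KO HFD and −5.43 ± 0.40 in WT HFD. The very low Hoxc10 level of epididymal fat was thus seen with and without epididymis transcript.

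Hoxa9, which acts in the lumbar axis and in blood stem cells, had 0.669, 3.66 and 7 CPM (lowest, median, highest) in WT chow epididymal libraries and 11.5, 17.2 and 26.6 CPM in WT chow subcutaneous libraries. Its log2 fold change was −2.19 ± 0.43 (adjusted p = 3.15e-05), and it ranged from −3.84 in WT HFD to −0.91 in mInhbe mice. Low-epididymis libraries differed more from subcutaneous fat, at −2.85 ± 0.46 in WT chow, −5.42 ± 0.42 in KO HFD and −5.05 ± 0.37 in WT HFD. Hoxc9, a thoracic patterning gene, had 2.62, 3.57 and 5.02 CPM in WT chow epididymal libraries and 6.87, 8.02 and 16 CPM in WT chow subcutaneous libraries, and the depots did not overlap. Its log2 fold change was −1.26 ± 0.20 (adjusted p = 4.22e-07) with all libraries and −1.17 ± 0.35 (adjusted p = 0.0211) with low-epididymis libraries in WT chow. With KO chow mice that comparison had 1 low-epididymis library, which is assumed to vary like the others, and Hoxc9 was not called there (adjusted p = 0.193).

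Counted over the clusters, more Hox genes were higher than lower in epididymal fat in 5 of the 6 groups. In mInhbe mice 25 of 31 tested Hox genes were higher and 3 lower, where 35.7% and 29% of all 15416 genes tested were (64.7% either way). GFP mice had 23 higher and 3 lower (35.8% and 28.7% of all genes, 64.5% either way). KO chow mice had 21 higher and 3 lower (21% and 15%, 36% either way), WT chow mice 19 and 3 (24.5% and 18.7%, 43.1% either way), and KO HFD mice 16 and 5 (22.5% and 19.3%, 41.8% either way). In WT HFD mice 3 were higher and 10 lower (21.8% and 18.9%, 40.8% either way), and 1 was higher and 8 lower with only the groups compared in the fit. The median log2 fold change over the 31 genes was 1.64 in mInhbe, 1.62 in GFP, 0.91 in KO chow, 0.99 in WT chow, 0.70 in KO HFD and 0.02 in WT HFD mice, against medians of −0.01 to 0.06 over all genes tested. These medians were the same with genes at 0 in subcutaneous fat set to their lower bounds. The counts and medians include Hoxa11, Hoxd11 and Hoxd13, and in the vector experiment Hoxd12, which passed the low-count filter only through epididymal libraries and so could only come out higher there. Of the 3 higher genes of WT HFD mice, 2 were Hoxd11 and Hoxd13. No p is given for these genes between depots, and the counts that hold them support nothing further. The 2 experiments were fitted apart, and their levels were not compared with each other.

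The most posterior genes were close to 0 in subcutaneous fat and were found in part of the epididymal libraries. Hoxa11, which patterns forearm, kidney and genital ducts, had 0, 0.318 and 15.1 CPM (lowest, median, highest) in WT chow epididymal libraries and 0, 0.0648 and 0.0733 CPM in WT chow subcutaneous libraries. Hoxd11, its partner in forearm and kidney, had 0, 0.124 and 6.57 CPM in WT chow epididymal libraries and 0 in all 8 subcutaneous ones, so that its mean was at least 11.4-fold higher against a floor of 3 counts per library. Hoxd13, which patterns digits and the urogenital tract, had 0, 0 and 7.87 CPM in WT chow epididymal libraries and 0 in all WT chow subcutaneous ones, a mean at least 9.75-fold higher. The means rested on a few libraries: 5 of 8 WT chow epididymal libraries held no Hoxd13 count. In mInhbe mice, where no library was low in epididymis transcript, all 10 epididymal libraries held Hoxd13, at 2.49 to 9.21 CPM, and the mean was at least 27.3-fold above the subcutaneous floor.

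Other rises had broad ranges in epididymal fat too. Hoxb9, a thoracic gene that also acts in the mammary gland, had 2.55, 17 and 27.1 CPM in WT chow epididymal libraries against 2.55, 2.89 and 3.79 CPM in subcutaneous libraries (2.34 ± 0.41, adjusted p = 5.63e-06). Hoxd3, a neck gene, had 1.03, 5.34 and 9.56 CPM against 0.825, 1.7 and 1.93 CPM (1.85 ± 0.41, adjusted p = 0.000164). Hoxb8, a trunk gene also used in microglia, had 3.34, 10.8 and 38.1 CPM against 3.3, 4.14 and 8.22 CPM (1.81 ± 0.42, adjusted p = 0.000339). For these 3 genes the lowest epididymal libraries lay within the subcutaneous range. Hoxb6, of the thoracic skeleton, had 0.99, 5.84 and 16.7 CPM in WT chow epididymal libraries against 1.68, 2.4 and 3.28 CPM in subcutaneous libraries (1.71 ± 0.37, adjusted p = 0.00012), with overlap as well.

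Hoxc4 and Hoxa5 rose with little spread. Hoxc4, an anterior member of its cluster, had 13.4, 18.5 and 24.8 CPM in WT chow epididymal libraries and 4.63, 6.82 and 10.6 CPM in WT chow subcutaneous libraries, with no overlap (1.41 ± 0.15, adjusted p = 1.81e-11). Hoxa5, which patterns the neck and upper thorax and the lung, had 10, 14.2 and 18.7 CPM in WT chow epididymal libraries and 4.47, 5.8 and 6.28 CPM in subcutaneous ones, also with no overlap (1.40 ± 0.15, adjusted p = 1.11e-10). Hoxc4 was called higher in all 6 groups and in all 4 groups of low-epididymis libraries. Hoxa5 was called in all but WT HFD mice, where its log2 fold change was 0.32 ± 0.16 (adjusted p = 0.107).

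**Figure D2:**
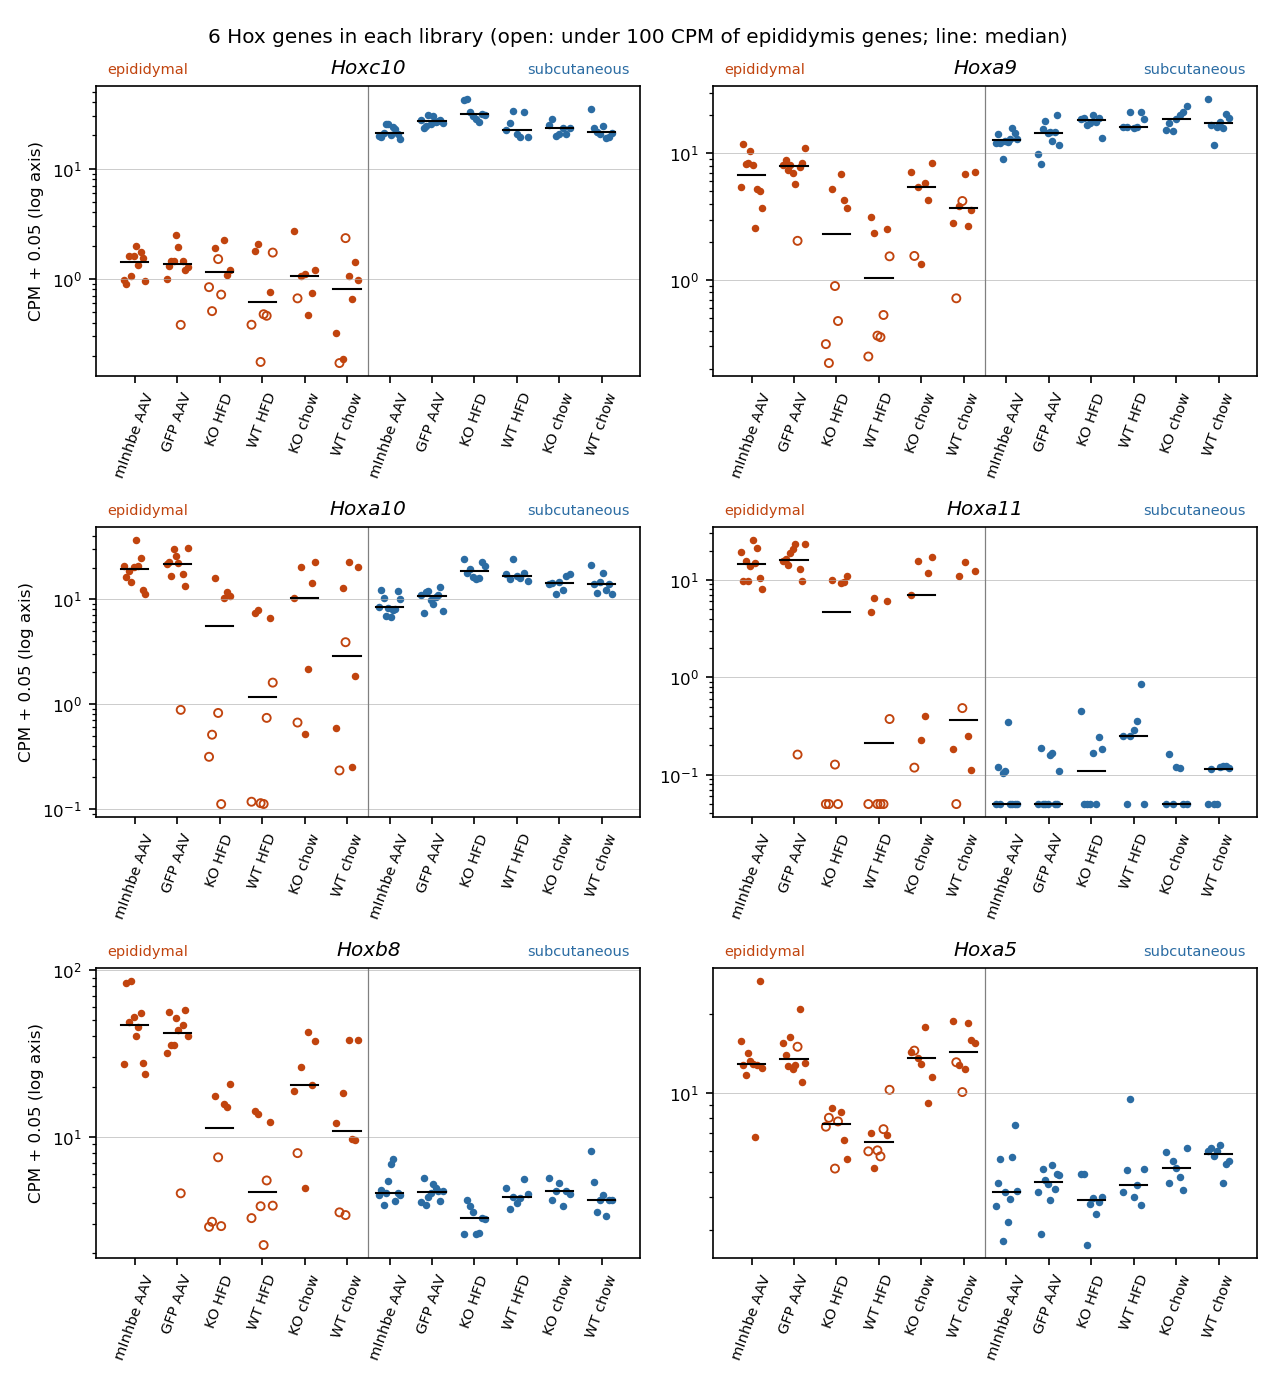
Level in every library (CPM plus 0.05, log axis) of Hoxc10, Hoxa9, Hoxa10, Hoxa11, Hoxb8 and Hoxa5 in the 12 groups, with open points for low-epididymis libraries and bars at the medians. Hoxc10 separates the depots in every library, while Hoxa10, Hoxa11 and Hoxb8 are low in the open points.

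Within epididymal fat of the KO experiment, Hoxa10, Hoxa11, Hoxd11, Hoxd13 and the HoxB genes named here were higher where epididymis transcript was higher. In the vector experiment Hoxa10, Hoxa11, Hoxd11 and Hoxd13 did not rise with the sum of the 12 epididymis genes. Hoxa11, Hoxd11, Hoxd12 and Hoxd13 together had 0, 0 and 0.681 CPM (lowest, median, highest; 27 counts in all) in the 13 low-epididymis libraries, 0.062, 20.8 and 42 CPM (12885 counts) in the other 38 epididymal libraries, and 0, 0.0563 and 0.802 CPM (67 counts) in the 50 subcutaneous ones. The low-epididymis libraries thus had the range of subcutaneous fat for these genes. Hoxb8 had 2.19, 3.47 and 7.93 CPM in low-epididymis libraries, 4.87, 33.6 and 85.8 CPM in the other epididymal ones and 2.55, 4.36 and 8.22 CPM in subcutaneous fat. Hoxa10, which acts in the lumbar axis and the genital ducts, had 0.0608, 0.459 and 3.84 CPM in low-epididymis libraries, 0.202, 16.1 and 36.6 CPM in the others, and 6.79, 13.5 and 24.4 CPM in subcutaneous fat. Hoxa10 was therefore below subcutaneous fat in low-epididymis libraries and overlapped it in the others.

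Across the 31 epididymal libraries of the KO experiment, Spearman's rho with the epididymis sum was 0.95 for Hoxb6, 0.93 for Hoxb8, 0.92 for Hoxb7, 0.90 for Hoxb2, 0.89 for Hoxd8, 0.84 for Hoxa11 and 0.82 for Hoxa10. It was −0.25 for Hoxc5, −0.17 for Hoxc6, −0.07 for Hoxc8, −0.08 for Hoxc9 and 0.13 for Hoxc4, and it was 0.35 for Hoxc10. Both measures come from the same libraries and diets, and these values are descriptions. In the vector experiment, with 20 epididymal libraries, rho was 0.89 for Hoxd8 and 0.81 for Hoxb7. For genes with number 9 it was 0.77 for Hoxa9, 0.48 for Hoxb9, −0.13 for Hoxc9 and 0.73 for Hoxd9 there. For more posterior genes it was −0.02 for Hoxa10, −0.09 for Hoxa11, 0.05 for Hoxc10 and 0.04 for Hoxd10. It was −0.16 for Hoxd11, −0.38 for Hoxd12 and −0.12 for Hoxd13. The 1 low GFP library had Hoxd11 at 0.221 CPM, against 3.17 to 6.52 CPM in the other GFP epididymal libraries. Some libraries broke the pattern of the sum. WT chow 1, 6 and 7, with epididymis sums of 132, 111 and 109 CPM, had Hoxa11 at most at 0.202 CPM. KO chow 4, at 629 CPM, had 0.176 CPM, and KO chow 5, at 11987 CPM, had 0.351 CPM. Their Crisp1 levels were 15, 12.8, 0.62, 19.6 and 158 CPM in that order. In the other epididymal libraries of the KO experiment with sums above 100 CPM, Crisp1 was 683 to 4354 CPM. Across that experiment rho with Crisp1 was 0.92 for Hoxa11, 0.90 for Hoxa10 and 0.89 for Hoxb6. Across the vector experiment rho with Crisp1 was 0.39 for Hoxa10, 0.33 for Hoxa11 and 0.45 for Hoxd10. It was 0.29 for Hoxd11, −0.09 for Hoxd12 and 0.27 for Hoxd13 there. The part of epididymis RNA in the levels of single Hox genes was not tested.

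**Figure D3:**
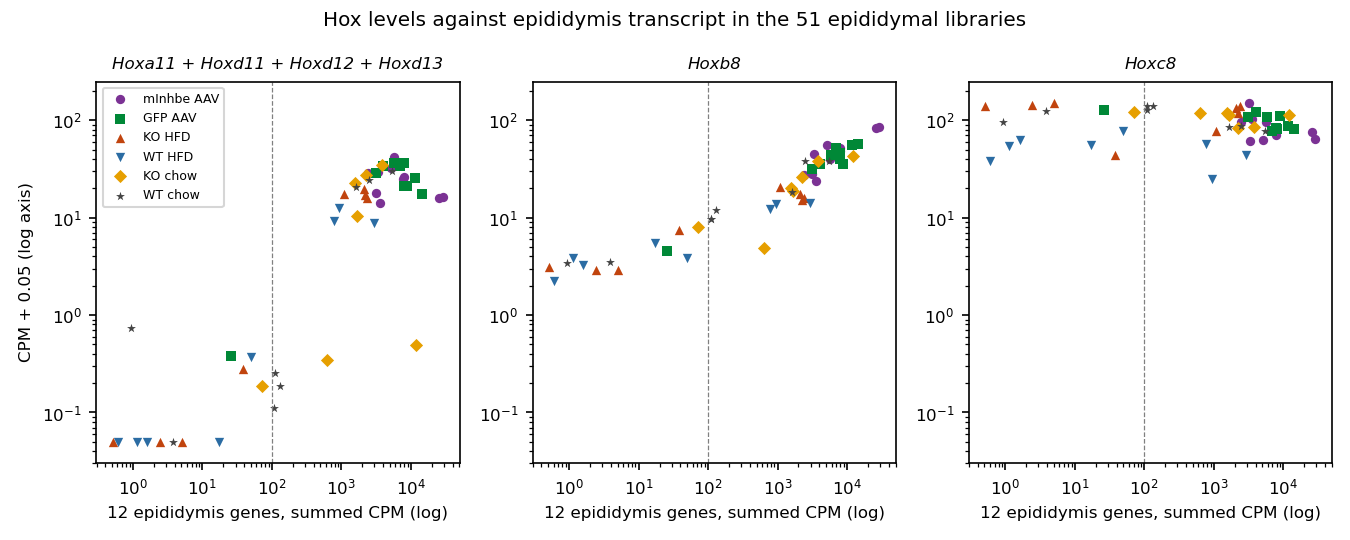
Summed CPM of Hoxa11, Hoxd11, Hoxd12 and Hoxd13, of Hoxb8 and of Hoxc8 against the sum of 12 epididymis genes (both log axes) in each of the 51 epididymal libraries, with a dashed line at 100 CPM. Hoxb8 rises with epididymis transcript, the posterior sum is high in most libraries right of the line with 5 exceptions in chow groups, and the Hoxc8 ranges of both sides overlap.

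When only low-epididymis libraries stood for epididymal fat, the depot pattern of the Hox genes was tilted. In WT chow, 5 of 29 tested members were higher and 5 lower (7.13% and 7.49% of all 16086 genes, 14.6% either way). In KO HFD 5 were higher and 5 lower (18.5% and 15.6%, 34.1% either way), in WT HFD 1 was higher and 12 lower (16.7% and 13.5%, 30.2% either way), and in KO chow, with 1 epididymal library, 5 and 3 (5.27% and 1.14%, 6.41% either way). Lower in all 4 were Hoxa9, Hoxa10 and Hoxc10. In WT chow Hoxa10 was −2.81 ± 0.61 (adjusted p = 0.00152), where it was −0.93 ± 0.71 (adjusted p = 0.309) with all libraries. Hoxd10, the third paralog of that number, was −2.31 in WT chow, −1.80 in KO HFD and −2.53 in WT HFD, all called. The higher genes in WT chow were Hoxc4 at 1.45 ± 0.21, Hoxa5 at 1.08 ± 0.23, Hoxa4 at 0.89, Hoxc5 at 0.68 and Hoxd8 at 0.64.

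The rises of Hoxb6, Hoxb7, Hoxb8, Hoxb9 and Hoxd3 in WT chow were not seen in the low-epididymis libraries of WT chow, at −0.36, −0.04, −0.42, 0.02 and −0.32, none of them called. In KO mice Hoxb6 was called higher with low-epididymis libraries, at 0.76 ± 0.22 on HFD (adjusted p = 0.00736) and 1.15 ± 0.34 on chow (adjusted p = 0.0318). Hoxb9 was called higher in KO chow, at 2.33 ± 0.45 (adjusted p = 0.000486), and both KO chow values rest on 1 epididymal library. Spearman's rho between paralog number and the log2 fold change over members, which share libraries and are no replicates, ran from −0.07 to 0.32 over the 6 groups with all libraries (31 members). With low-epididymis libraries it was −0.32 in WT chow, −0.40 in KO chow, −0.47 in KO HFD and −0.81 in WT HFD (29 members), so that posterior members then lay lower in epididymal fat and anterior ones higher. In the plot of depot differences, the fitted values of Hoxd11 and Hoxd13, at 0 in nearly all subcutaneous libraries, depend on the prior count and are no bounds.

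**Figure D4:**
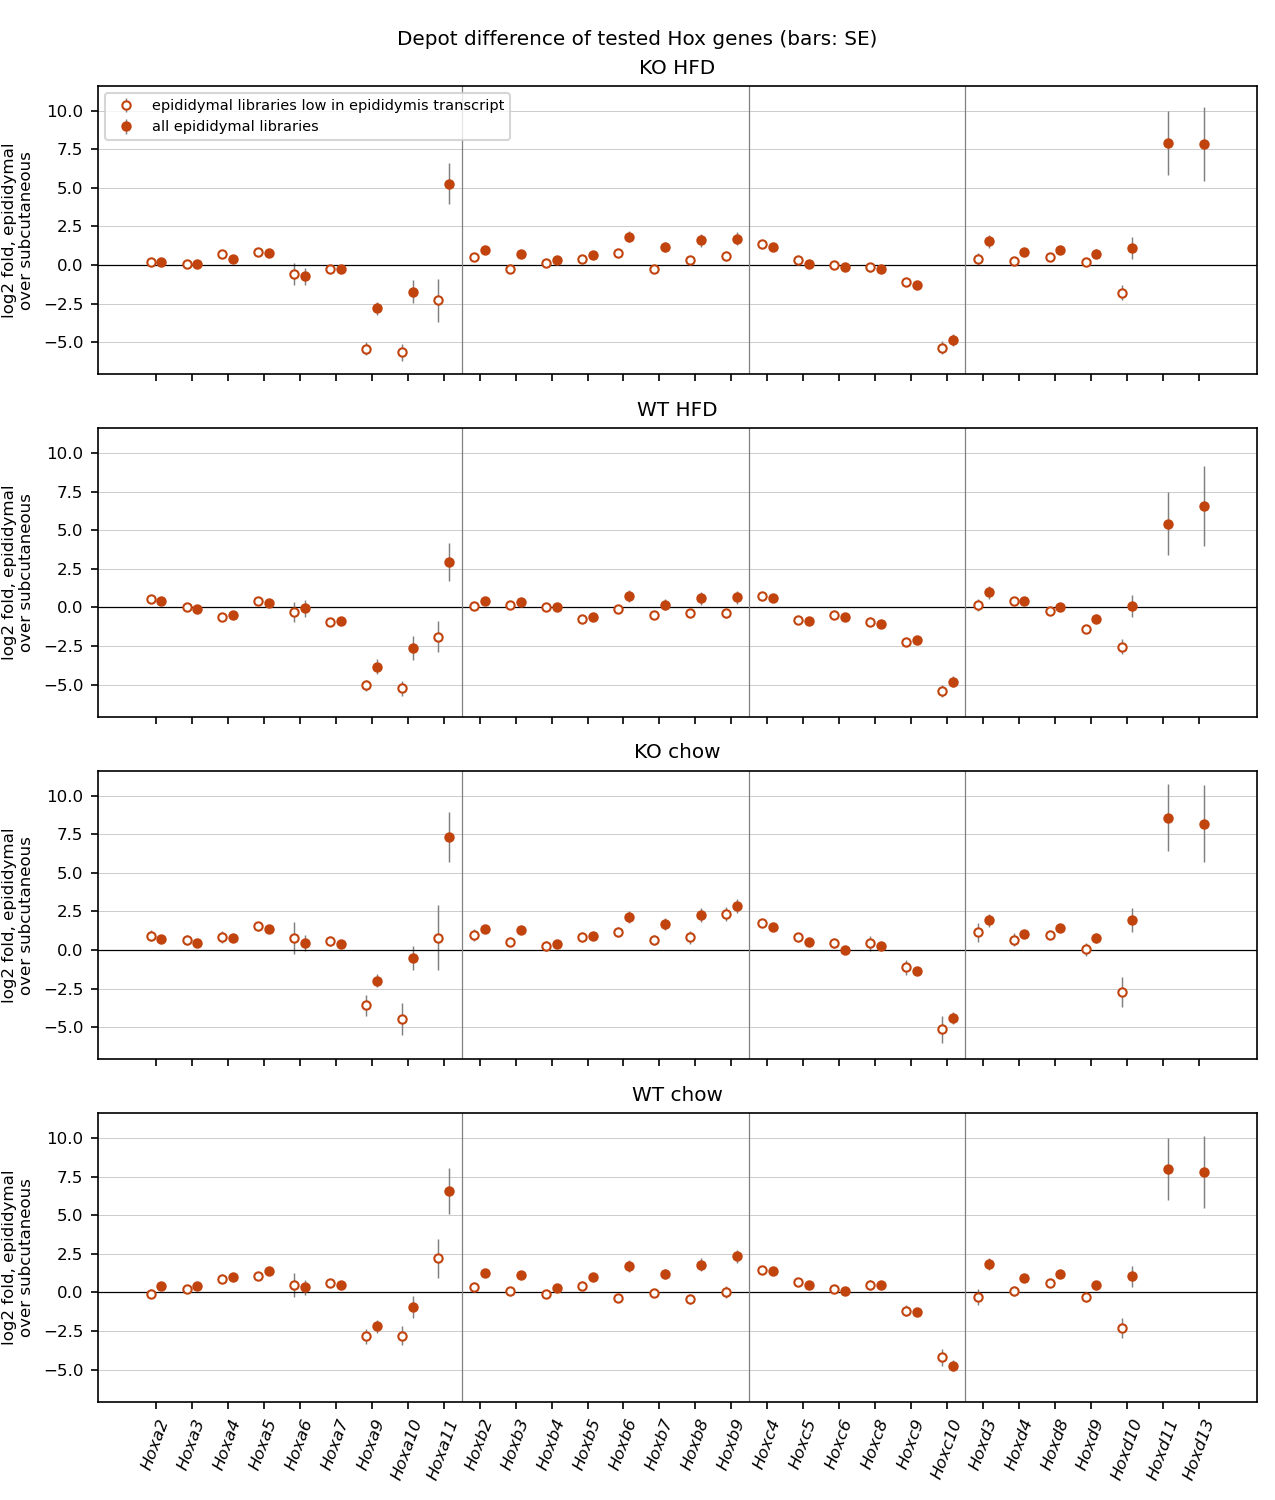
Log2 fold change, epididymal over subcutaneous, of tested Hox genes in the 4 groups of the KO experiment, with all libraries (filled) and with low-epididymis libraries only (open), and bars of 1 SE. Hoxc10 and Hoxa9 are low and Hoxc4 is high in both, and many HoxB and HoxD genes lie lower in the open points.

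Of 20 other factors that pattern fat depots, all tested, 10 were higher and 5 lower in WT chow epididymal fat, where 24.5% and 18.7% of all genes were (43.1% either way). Wt1, a marker of visceral fat progenitors and mesothelium, had 14.9 to 38.6 CPM in WT chow epididymal and at most 0.0578 CPM in WT chow subcutaneous libraries, and it stayed at 6.17 to 38.6 CPM in low-epididymis libraries. Shox2 at −5.40 ± 0.26 and Tbx15 at −7.08 ± 0.44, both subcutaneous fat factors, fell in epididymal fat as Hoxc10 did. Of 18 noncoding genes of the clusters 2 were tested. Hoxa11os, the antisense gene of Hoxa11, had 0, 0.217 and 8.48 CPM in WT chow epididymal and at most 0.147 CPM in subcutaneous libraries, and reads of this pair cannot be told apart unless strand was used.

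The mInhbe vector went with slightly lower levels of 4 Hox genes in subcutaneous fat and with no called change in epididymal fat. Of 27 Hox genes tested in subcutaneous fat, 0 were higher and 4 lower, where 15.8% and 11.4% of all genes were (27.2% either way). The count of lower genes was near the share over all genes and is no result about Hox genes as a set. The median log2 fold change was −0.22 over Hox genes and −0.00 over all genes. Hoxc10 had 18.5, 20.8 and 25.5 CPM (lowest, median, highest) in mInhbe libraries against 23.4, 27 and 30.3 CPM in GFP libraries, (−0.41 ± 0.08, adjusted p = 0.00123). Hoxa7, of the thoracic skeleton, had 7.62, 8.38 and 9.88 CPM against 8.17, 9.04 and 10.8 CPM (−0.25 ± 0.09, adjusted p = 0.0379). The other called genes were Hoxc6, with 14.7, 19.5 and 24.9 CPM in mInhbe libraries against 17.6, 20.9 and 29.9 CPM in GFP libraries (−0.27 ± 0.10, adjusted p = 0.0462), and Hoxc8, with 58, 70.8 and 87.2 CPM against 59.7, 72.8 and 93.2 CPM (−0.22 ± 0.08, adjusted p = 0.0473). Within the GFP range lay 3 of 10 mInhbe libraries for Hoxc10, 6 for Hoxa7, 8 for Hoxc6 and 9 for Hoxc8.

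Lymph node content differed between these groups: the list of 13 genes summed to 884 to 1995 CPM in mInhbe and 672 to 1475 CPM in GFP subcutaneous libraries, and 3 of the 13 were called higher, against the 15.8% of all genes higher in this comparison. With a lymph node score in the fit, Hoxc10 was −0.31 (adjusted p = 0.0327), while Hoxa7 was −0.08 (adjusted p = 0.63), Hoxc6 −0.22 (adjusted p = 0.268) and Hoxc8 −0.15 (adjusted p = 0.371). In epididymal fat 0 of 31 Hox genes were called by edgeR, 2 had an unadjusted p under 0.05, and DESeq2 and limma-voom called 0 as well (0.761% of all genes higher and 0.404% lower, 1.16% either way). The difference of the vector effect between depots was called for 0 Hox genes (13.5% of all genes), with 1 at an unadjusted p under 0.05 and 0 by DESeq2 or limma-voom.

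On chow, no Hox gene was called between KO and WT mice in either depot. In subcutaneous fat edgeR called 0 of 27 (0.134% of all genes higher and 0.12% lower, 0.253% either way), with 1 at an unadjusted p under 0.05. In epididymal fat it called 0 of 30 (0.173% of all genes higher and 0.485% lower, 0.658% either way), with 0 at an unadjusted p under 0.05. With low-epididymis libraries only, 1 of KO chow and 2 of WT chow, 0 of 27 were called (0.0259% of all genes higher and 0.0259% lower, 0.0517% either way), with 2 at an unadjusted p under 0.05. DESeq2 and limma-voom also called 0 in both depots. The genotype effect was called as different between depots for 0 Hox genes by edgeR, DESeq2 or limma-voom (0% of all genes), with 0 at an unadjusted p under 0.05. With low-epididymis libraries that test also called 0, and 4 had an unadjusted p under 0.05. Hoxc8, for one, had 83.8, 113 and 121 CPM in KO chow epididymal libraries and 76.9, 109.6 and 141 CPM in WT chow ones.

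On HFD, 8 Hox genes were higher in KO than in WT epididymal fat and none lower, among 30 tested. Over all genes 17% were higher and 20.2% lower (37.2% either way), and the median log2 fold change was 0.68 over Hox genes and 0.01 over all genes. The smallest p values were those of HoxC genes of the trunk. Hoxc5, a neighbour of Hoxc4 and Hoxc6 in the cluster, had 11.3, 17 and 19.7 CPM in KO HFD libraries against 5.93, 7.21 and 8.38 CPM in WT HFD libraries, with no overlap (1.36 ± 0.16, adjusted p = 6.71e-08). Hoxc6 had 20.5, 23.9 and 36.2 CPM against 10.5, 14.7 and 17.6 CPM, again apart (1.02 ± 0.15, adjusted p = 3.38e-06). Hoxc8 had 43.8, 136 and 149 CPM in KO HFD libraries against 24.7, 54.6 and 77.4 CPM in WT HFD libraries (1.36 ± 0.22, adjusted p = 1.1e-05). Its 2 lowest KO HFD libraries, at 43.8 and 77.4 CPM, lay within the WT HFD range and the other 6 lay above it.

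Hoxc9 had 3.32, 4.98 and 5.86 CPM in KO HFD epididymal libraries against 2.13, 2.8 and 3.36 CPM in WT HFD ones (1.00 ± 0.16, adjusted p = 1.27e-05). Hoxa4, an anterior gene, had 1.95, 2.74 and 5.86 CPM against 0.975, 1.69 and 2.4 CPM (1.06 ± 0.24, adjusted p = 0.000614). Hoxc4 had 10.4, 12.1 and 16.2 CPM against 7.11, 9.97 and 11.2 CPM (0.60 ± 0.16, adjusted p = 0.00267). Of the 8 KO HFD libraries, 1 lay within the WT HFD range for Hoxc9, 2 for Hoxa4 and 1 for Hoxc4. Hoxb5, a shoulder and gut neuron gene, had 3.71, 6.99 and 9.12 CPM in KO HFD libraries against 2.93, 4.79 and 7.06 CPM in WT HFD libraries (0.68 ± 0.18, adjusted p = 0.00369). Hoxa7 had 3.15, 4.4 and 5.24 CPM against 2.66, 3.45 and 5.18 CPM (0.43 ± 0.15, adjusted p = 0.0271). For Hoxb5 4 of the 8 KO HFD libraries lay within the WT HFD range and for Hoxa7 7 of 8 did.

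With low-epididymis libraries only, 4 of KO HFD and 5 of WT HFD, 6 of 27 Hox genes were higher and 0 lower (11.6% and 9.99% of all genes, 21.6% either way). They were Hoxa4 at 1.54, Hoxc4 at 0.72, Hoxc5 at 1.54, Hoxc6 at 1.05, Hoxc8 at 1.29 and Hoxc9 at 1.31. Hoxa7 and Hoxb5 were not called there, at adjusted p values of 0.0865 and 0.0839. The cell makeup of these pads differed too: the macrophage list summed to 455 to 1065 CPM in KO HFD and 1931 to 2533 CPM in WT HFD epididymal libraries, and all 6 of its genes were lower. The adipocyte list summed to 23056 to 30505 CPM in KO HFD and 13646 to 21299 CPM in WT HFD libraries, with 7 of 8 genes higher. Their part in the Hox differences was not tested.

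In subcutaneous fat on HFD, 2 Hox genes were higher and 4 lower in KO than in WT mice, of 27 tested (7.32% and 11.6% of all genes, 18.9% either way). The balance of directions depended on the tool, since limma-voom called 6 higher and 1 lower. Hoxc10 had 26.5, 31.1 and 42.6 CPM in KO HFD libraries against 19.4, 22.5 and 33.2 CPM in WT HFD libraries (0.57 ± 0.17, adjusted p = 0.0161). Hoxc6 had 21.6, 25.3 and 38.4 CPM against 14.4, 21 and 23.1 CPM (0.55 ± 0.17, adjusted p = 0.0211). Of the 8 KO HFD libraries, 6 lay within the WT HFD range for Hoxc10 and 2 did for Hoxc6. Hoxd8, a lumbosacral gene, was lower with 9.8, 10.9 and 12.8 CPM in KO HFD libraries against 13.8, 16.8 and 24.2 CPM in WT HFD ones, with no overlap (−0.49 ± 0.13, adjusted p = 0.007). Hoxd9, which acts in the same region, had 2.7, 3.08 and 4 CPM against 3.92, 4.33 and 10.7 CPM (−0.68 ± 0.18, adjusted p = 0.00894).

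Hoxb5 had 3.47, 3.76 and 5.16 CPM in KO HFD subcutaneous libraries against 4.82, 5.11 and 10.5 CPM in WT HFD ones (−0.59 ± 0.18, adjusted p = 0.0244), and Hoxb6 had 0.966, 1.23 and 1.96 CPM against 1.66, 2.23 and 2.86 CPM (−0.48 ± 0.17, adjusted p = 0.0437). Of the 8 KO HFD libraries, 1 lay within the WT HFD range for Hoxb5 and 3 for Hoxb6. Of the 7 WT HFD libraries, 3 are those with little lymph node transcript. Without the 9 libraries that stood apart in earlier results of these data, 4 of them in this group, 2 genes were higher and 2 lower. Hoxb6 was then −0.50 (adjusted p = 0.133) and Hoxd8 −0.31 (adjusted p = 0.169). Of WT HFD mice that fit held only libraries 3, 5 and 7. Library 3 itself stood far from its group for 6 Hox genes, high for 5 and low for 1.

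Hox genes were lower on HFD in WT epididymal fat: 0 of 30 were higher and 16 lower than on chow, where 28.9% and 25.2% of all genes were (54.1% either way), and the median log2 fold change was −0.92 over Hox genes and −0.02 over all genes. Hoxa7 fell most clearly, to 2.66, 3.45 and 5.18 CPM in WT HFD libraries, against 10.1, 12.5 and 15 CPM in WT chow libraries (−1.75 ± 0.15, adjusted p = 5.84e-11). Hoxa5 had 5.13, 6.42 and 10.2 CPM against 10, 14.2 and 18.7 CPM (−1.01 ± 0.15, adjusted p = 1.98e-06), and Hoxc5 had 5.93, 7.21 and 8.38 CPM against 9.22, 14.9 and 18.1 CPM (−0.95 ± 0.16, adjusted p = 1.05e-05). Hoxa7 and Hoxc5 did not overlap between the diets, and Hoxa5 did by 1 library. Hoxc4 had 7.11, 9.97 and 11.2 CPM in WT HFD libraries against 13.4, 18.5 and 24.8 CPM in WT chow libraries (−0.90 ± 0.16, adjusted p = 1.5e-05). Hoxa3, a gene of the pharynx and thymus, had 3.05, 4.13 and 4.98 CPM against 5.2, 8.17 and 10.9 CPM (−0.85 ± 0.17, adjusted p = 8.67e-05). Neither of these overlapped.

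The other 11 falls were of Hoxa4, Hoxb2, Hoxb3, Hoxb4, Hoxb5, Hoxb9, Hoxc6, Hoxc8, Hoxd3, Hoxd4 and Hoxd8, from −0.52 for Hoxb4 to −1.70 for Hoxd3. Low-epididymis libraries were 5 of 8 in WT HFD and 2 of 8 in WT chow, and with those alone 0 genes were higher and 5 lower (11.9% and 10.5% of all genes, 22.4% either way). These were Hoxa7 at −2.06, Hoxc5 at −1.15, Hoxc4 at −0.95, Hoxc9 at −0.68 and Hoxc6 at −0.64. The epididymal macrophage list summed to 1931 to 2533 CPM in WT HFD and 396 to 722 CPM in WT chow libraries, with 6 of 6 genes higher, and 6 of 7 mesothelium genes were lower. Their part was not tested.

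In KO epididymal fat the same diet gave 3 higher and 6 lower Hox genes (24.7% and 13.9% of all genes, 38.7% either way), with a median log2 fold change of −0.50 over Hox genes and 0.00 over all genes. Hoxa7 fell to 3.15, 4.4 and 5.24 CPM in KO HFD libraries, against 9.96, 11.2 and 13.7 CPM in KO chow libraries (−1.21 ± 0.16, adjusted p = 4.95e-07), with no overlap. Hoxa3 had 2.62, 3.83 and 5.4 CPM against 5.25, 8.48 and 11.4 CPM (−0.86 ± 0.17, adjusted p = 0.000249), and Hoxa5 had 5.09, 7.55 and 8.66 CPM against 9.11, 13.5 and 17.8 CPM (−0.65 ± 0.16, adjusted p = 0.00159). Hoxa2, a hindbrain gene, had 0.73, 0.996 and 1.78 CPM in KO HFD libraries against 1.2, 2.25 and 4.14 CPM in KO chow libraries (−0.83 ± 0.25, adjusted p = 0.00894). Hoxb3, of the hindbrain and pharynx, had 3.04, 7.06 and 14.3 CPM against 7.34, 16.9 and 27 CPM (−0.88 ± 0.30, adjusted p = 0.0203). Hoxd4, of the neck, had 4.24, 9.92 and 16.9 CPM against 9.45, 18 and 39.3 CPM (−0.68 ± 0.27, adjusted p = 0.0415). These last 3 overlapped between the diets, Hoxa3 did by 1 library of each, and Hoxa5 did not. The mesothelium list summed to 24.4 to 217 CPM in KO HFD and 187 to 412 CPM in KO chow epididymal libraries, with 6 of 7 genes lower. The macrophage list summed to 455 to 1065 CPM in KO HFD and 322 to 488 CPM in KO chow ones, with 4 of 6 genes higher, and their part was not tested.

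The rises were of HoxC genes. Hoxc9 had 3.32, 4.98 and 5.86 CPM in KO HFD epididymal libraries against 2.53, 3.3 and 4.37 CPM in KO chow ones (0.73 ± 0.17, adjusted p = 0.00113). Hoxc6 had 20.5, 23.9 and 36.2 CPM against 16.2, 21.7 and 28.7 CPM (0.47 ± 0.16, adjusted p = 0.0191), and Hoxc5 had 11.3, 17 and 19.7 CPM against 11, 14.9 and 17 CPM (0.44 ± 0.16, adjusted p = 0.0328). All 3 overlapped. With low-epididymis libraries, of which KO chow had 1, assumed to vary like the others, only Hoxa7 was called (−1.43), as 2.89% of all genes were higher and 1.09% lower (3.98% either way).

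Diet effects in subcutaneous fat went both ways. In WT mice 4 Hox genes were higher and 4 lower on HFD (22.6% and 21.5% of all genes, 44.1% either way), but with only the groups compared in the fit 3 were higher and 0 lower. Hoxb5 had 4.82, 5.11 and 10.5 CPM in WT HFD libraries against 2.86, 4.29 and 4.97 CPM in WT chow libraries (0.86 ± 0.18, adjusted p = 0.000408). Hoxa4 had 1.42, 2.13 and 3.01 CPM against 1.16, 1.46 and 1.74 CPM (0.75 ± 0.20, adjusted p = 0.00326). Hoxd8 had 13.8, 16.8 and 24.2 CPM against 12.6, 13.7 and 19.3 CPM (0.42 ± 0.13, adjusted p = 0.00877), and Hoxa10 had 15, 16.8 and 24.4 CPM against 11.3, 13.8 and 21.3 CPM (0.42 ± 0.16, adjusted p = 0.0298). All 4 ranges overlapped.

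The lower genes in WT HFD subcutaneous fat were Hoxa3, Hoxd3, Hoxa7 and Hoxd4. Hoxa3 had 3.14, 4.33 and 4.72 CPM in WT HFD libraries against 4.49, 6.06 and 9.05 CPM in WT chow libraries (−0.43 ± 0.16, adjusted p = 0.0271). Hoxd3 had 0.0664, 0.619 and 1.2 CPM against 0.825, 1.7 and 1.93 CPM (−0.91 ± 0.34, adjusted p = 0.0322). Hoxa7 had 5.13, 5.52 and 9.29 CPM against 6.16, 9.2 and 12.6 CPM (−0.45 ± 0.17, adjusted p = 0.033). Hoxd4 had 1.74, 5.65 and 10.5 CPM against 5.52, 9.63 and 10.7 CPM (−0.53 ± 0.22, adjusted p = 0.0474). All 4 ranges overlapped. Without the libraries that stood apart, Hoxa3 was −0.26 (adjusted p = 0.225), Hoxa4 0.39 (adjusted p = 0.227) and Hoxd8 0.25 (adjusted p = 0.195). Of WT HFD mice only libraries 3, 5 and 7 were left in that fit.

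In KO subcutaneous fat 5 Hox genes were higher and 3 lower on HFD (11.7% and 9.05% of all genes, 20.7% either way), while limma-voom called 6 higher and 10 lower. When both diet groups were fitted alone, 6 were higher and 7 lower. Hoxc10 had 26.5, 31.1 and 42.6 CPM in KO HFD libraries against 19.8, 23.1 and 28 CPM in KO chow libraries (0.78 ± 0.17, adjusted p = 0.00112). Hoxc5 had 11, 14.2 and 19.5 CPM against 6.86, 9.8 and 12.1 CPM (0.80 ± 0.18, adjusted p = 0.00174), and Hoxa10 had 15.6, 18.5 and 24.2 CPM against 11.1, 14.2 and 17.3 CPM (0.67 ± 0.16, adjusted p = 0.00252). Of the 8 KO HFD libraries, 2 lay within the KO chow range for Hoxc10, 2 for Hoxc5 and 3 for Hoxa10. Hoxc8 had 105, 125 and 171 CPM in KO HFD libraries against 77, 94.9 and 111 CPM in KO chow libraries (0.75 ± 0.22, adjusted p = 0.0153), and Hoxc6 had 21.6, 25.3 and 38.4 CPM against 16.8, 22.8 and 25.3 CPM (0.56 ± 0.17, adjusted p = 0.0165). Lower were Hoxa7, with 3.56, 4.89 and 5.63 CPM against 7.34, 9.26 and 10 CPM and no overlap (−0.64 ± 0.17, adjusted p = 0.00713), Hoxa3 at −0.56 ± 0.16 (adjusted p = 0.0108) and Hoxb6 at −0.59 ± 0.17 (adjusted p = 0.0112). Hoxa3 had 2.57, 3.47 and 3.99 CPM in KO HFD libraries against 5.04, 6.19 and 7.73 CPM in KO chow libraries, and Hoxb6 had 0.966, 1.23 and 1.96 CPM against 2.09, 2.38 and 3.06 CPM, and neither overlapped.

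**Figure D5:**
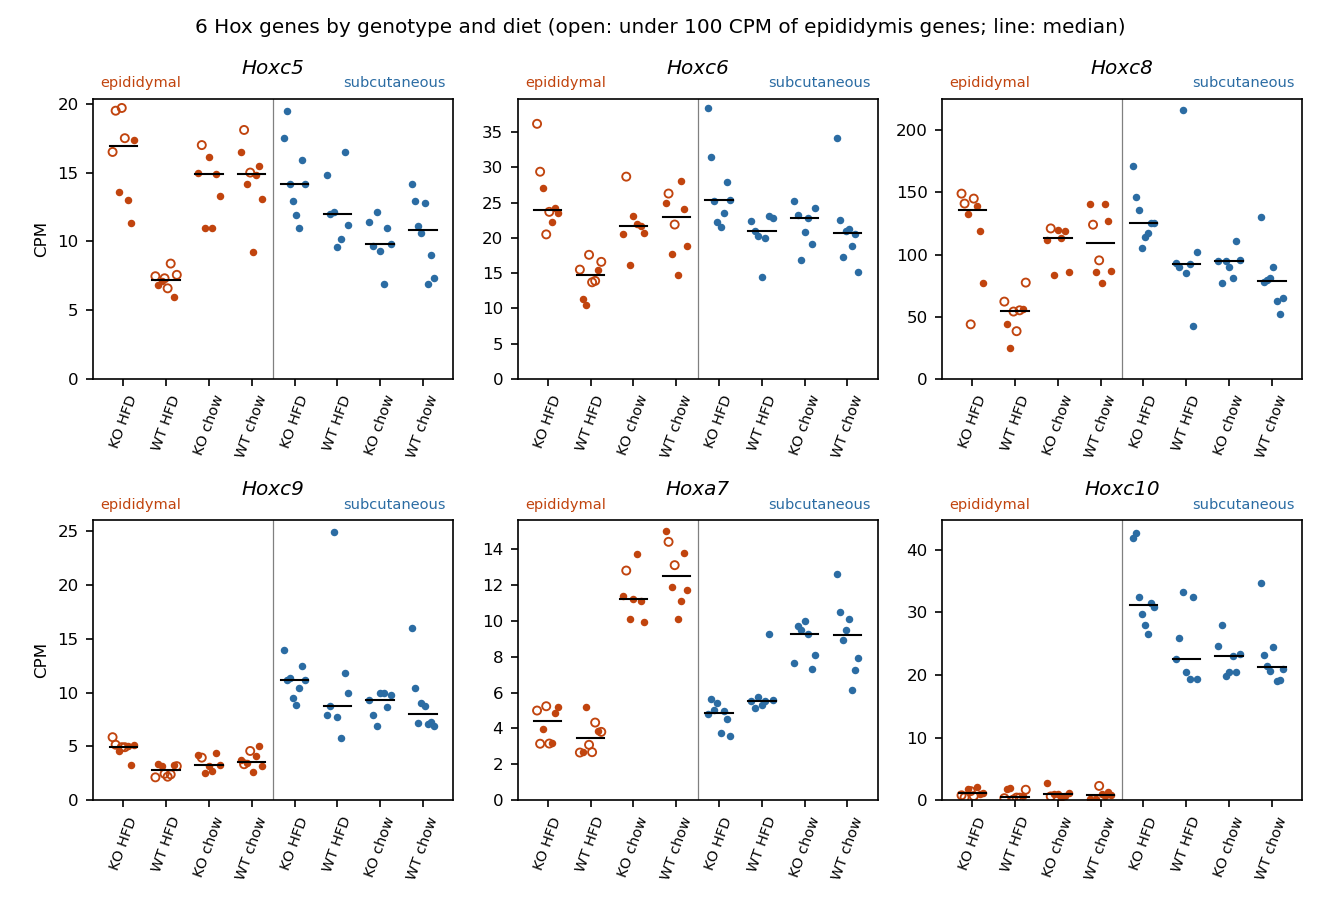
Level in every library (CPM) of Hoxc5, Hoxc6, Hoxc8, Hoxc9, Hoxa7 and Hoxc10 in KO HFD, WT HFD, KO chow and WT chow mice, by depot, with bars at the medians. In epididymal fat the HoxC genes from Hoxc5 to Hoxc9 are lowest in WT HFD mice, and Hoxa7 is low in both HFD groups.

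Interaction tests asked whether one effect depended on another. In epididymal fat the genotype effect differed between diets for 4 of 30 Hox genes, all in the direction of a larger KO over WT ratio on HFD (7.83% of all genes higher and 8.7% lower, 16.5% either way). They were Hoxc5 at 1.39 ± 0.23 (adjusted p = 8.47e-05), Hoxc9 at 1.09 ± 0.24 (adjusted p = 0.00155), Hoxc6 at 1.01 ± 0.22 (adjusted p = 0.00156) and Hoxc8 at 1.37 ± 0.32 (adjusted p = 0.00278). With low-epididymis libraries none was called by edgeR, and 4 had an unadjusted p under 0.05 (0.0129% of all genes higher and 0.0647% lower, 0.0776% either way). Those 4 were Hoxc5 at 1.46 (unadjusted p = 0.000237), Hoxc9 at 1.28 (0.00707), Hoxc6 at 0.76 (0.0291) and, in the opposite direction, Hoxb3 at −0.92 (0.0435). Hoxc8 was 1.11 (0.123), and these fits hold 1 KO chow and 2 WT chow libraries. In subcutaneous fat 0 of 27 were called (2.14% of all genes), with 5 at an unadjusted p under 0.05, 0 by DESeq2 and 1 by limma-voom.

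The KO effect on HFD differed between depots for 6 of 31 Hox genes, all more positive in epididymal fat (7.76% of all genes higher and 6.87% lower, 14.6% either way). These were Hoxb5 at 1.26 ± 0.27 (adjusted p = 0.00137), Hoxc5 at 0.95 ± 0.23 (adjusted p = 0.00418), Hoxd8 at 0.94 ± 0.26 (adjusted p = 0.0106), Hoxd9 at 1.45 ± 0.42 (adjusted p = 0.0151), Hoxa4 at 0.88 ± 0.30 (adjusted p = 0.0379) and Hoxc9 at 0.81 ± 0.28 (adjusted p = 0.0411). The same 6 were called with low-epididymis libraries, at 0.79 for Hoxd8 to 1.58 for Hoxd9 (11.5% of all genes). In epididymal fat, Hoxd8 itself had 13.3, 23.8 and 32.1 CPM in KO HFD and 11.4, 19.6 and 27.1 CPM in WT HFD libraries, and Hoxd9 had 2.43, 6.22 and 8.76 CPM in KO HFD and 0.999, 3.02 and 7.11 CPM in WT HFD libraries. For these 2 genes the fall in subcutaneous fat passed the test and the epididymal difference did not.

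The HFD effect in WT mice differed between depots for 14 of 31 Hox genes, all more negative in epididymal fat (16.1% of all genes higher and 17.3% lower, 33.3% either way). The smallest p values were for Hoxa7 at −1.36 ± 0.22 (adjusted p = 2.27e-06), Hoxc5 at −1.37 ± 0.23 (adjusted p = 4.98e-06), Hoxb5 at −1.59 ± 0.27 (adjusted p = 5.54e-06), Hoxc8 at −1.55 ± 0.31 (adjusted p = 7.6e-05) and Hoxa4 at −1.50 ± 0.30 (adjusted p = 8.18e-05). With low-epididymis libraries 9 of 29 were called, all negative (9.08% and 8.72% of all genes, 17.8% either way), among them these 5. In KO mice the difference between depots was called for 0 Hox genes (3.96% of all genes), with 2 at an unadjusted p under 0.05, 0 by DESeq2 and 1 by limma-voom.

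Partner and regulator genes of the Hox network were taken from lists of known members, chosen with earlier results known. Of 10 TALE partner genes tested, 4 were higher and 2 lower in WT chow epididymal than subcutaneous fat (24.5% and 18.7% of all genes), with Meis1 at 1.61 ± 0.19. On HFD in WT epididymal fat 3 were higher and 3 lower (28.9% and 25.2% of all genes), with Meis1 at −1.02 ± 0.20 and the TALE repressor Tgif1 at 1.54 ± 0.16. In KO over WT epididymal fat on HFD 0 were higher and 4 lower (17% and 20.2% of all genes), with Tgif1 at −1.13 ± 0.16. Of 20 Polycomb and trithorax genes tested, which keep Hox genes off or on, 3 were higher and 8 lower in WT chow epididymal than subcutaneous fat (24.5% and 18.7%), with Ezh2 at −0.94 ± 0.16. In mInhbe over GFP subcutaneous fat 6 of the 20 were higher and 0 lower (15.8% and 11.4%), led by Kdm6a at 0.67 ± 0.13. Of 15 retinoic acid genes tested, a pathway that sets Hox expression in the embryo, 6 were higher and 2 lower in WT chow epididymal than subcutaneous fat (24.5% and 18.7%), led by the synthesis enzyme Aldh1a2 at 2.85 ± 0.20. These lists are short, and a count near the share over all genes is no result about a list.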

How the data were processed

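Estimated counts per gene were deposited by the authors for each library, in 1 table per experiment; about 2.93% (KO) and 2.95% (vector) of the values are not whole within a tolerance of 1e-06. Reads relate to mm10 per the submitters' processing notes, and which aligner, counter and strand setting were used is not given in the sources used here. Values were rounded to whole numbers for the count tests, although the design had assumed whole counts. Entrez IDs were joined to RefSeq symbols (24375 matched, 100 did not). CPM is per 1e+06 of the library total, and CPM per kb divides by GENCODE M21 exon length.

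Each depot within an experiment, and both depots of an experiment for depot comparisons, were fitted with edgeR 4.0.16 (R 4.3.3): filterByExpr with a minimum count of 10 and a minimum total of 15, TMM scaling, robust quasi-likelihood tests and Benjamini-Hochberg adjustment over all genes at 0.05. The SE is the log2 fold change divided by the root of the F statistic. The alternatives were RLE scaling, no filter, limma-voom (limma 3.58.1), DESeq2 1.42.0, a replicate block, lymph node or epididymis scores, only the groups compared, and 9 libraries left out that stood apart in earlier results of these data (GFP subcutaneous 2, GFP epididymal 7 and 8, WT chow subcutaneous 1, WT HFD subcutaneous 1, 2, 4 and 6, and KO HFD subcutaneous 2). The fits with low-epididymis libraries only were added after seeing the data. Fits were tested on simulated counts. The members and lists were chosen with earlier results of these data known.

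Values by library are given for the 8 largest rises and falls between depots in WT chow and for the members called in a vector, genotype, diet or interaction test (the 5 smallest p values where over 10 were called). Values of Hoxa5, Hoxa10 and Hoxd12 between depots were added. Floors of 3 counts cover counting error only. Labels do not say that equal replicate numbers mark 1 mouse, so the block is an alternative. In 0 of 16 comparisons did every same-numbered pair deviate together (r above 0.1). Some of these compare treatments, where no pair can be 1 mouse. Between depots the median r of a group ran from −0.18 in mInhbe to 0.11 in KO HFD mice. The check cannot exclude that same-numbered libraries of both depots came from 1 mouse. Where nothing says that libraries came from separate cages or litters, p values measure the spread between these libraries. Figures were drawn with matplotlib 3.10.9. Single results of some genes are not reported here.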

Additional observations from a re-analysis of the deposited data

Results flagged for a closer look

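Dixon's criterion was applied to 319 combinations of a gene and a group of 7 to 10 libraries, with a mean of at least 1 CPM. In 32 of them (10%) 1 library stood far from the others, where chance marks about 1 in 20. Genes of 1 library are not separate trials, so the 10% cannot be judged against that rate. GFP epididymal library 7, low in epididymis transcript, was low for Hoxb2 at 3.59 CPM (others 9.12 to 15.3), Hoxb5 at 6.41 (11.3 to 16), Hoxb6 at 2.54 (14.7 to 27.8), Hoxb7 at 4.75 (23 to 41.4), Hoxb8 at 4.53 (31.8 to 57.5) and Hoxd11 at 0.221 CPM (3.17 to 6.52). WT HFD subcutaneous library 3 was high for Hoxa5 at 9.44 CPM, Hoxa10 at 24.4, Hoxb4 at 14.4, Hoxc8 at 216 (others 42.5 to 102) and Hoxc9 at 24.9, and low for Hoxb3 at 3.39 CPM. WT chow subcutaneous library 1, with little lymph node transcript, was high for Hoxb8 at 8.22 CPM, Hoxc6 at 34.2, Hoxc9 at 16 and Hoxc10 at 34.7 CPM.

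Among mInhbe epididymal libraries, number 9 was high for Hoxa5 at 26.5 CPM, Hoxc8 at 152 and Hoxc9 at 7.55 CPM, and number 6 for Hoxa10 at 36.6 and Hoxd10 at 11.6 CPM. GFP epididymal library 8 was high for Hoxa4 at 7.99 and Hoxa5 at 20.8 CPM. In KO epididymal fat, KO HFD 4 was high for Hoxa4 at 5.86 CPM and KO chow 1 for Hoxc10 at 2.69 CPM, and WT HFD epididymal library 8 was high for Hoxa5 at 10.2 CPM. Among GFP subcutaneous libraries, number 4 was high for Hoxc4 at 7.12 and number 8 for Hoxb3 at 7.08 CPM. In the other subcutaneous groups, KO chow 5 was high for Hoxc4 at 8.53 and WT HFD 6 for Hoxa7 at 9.29 CPM, while WT HFD 4 was low for Hoxc6 at 14.4 and WT chow 2 for Hoxd4 at 5.52 CPM.

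Interaction terms differed between groups for 24 results. The HFD effect in WT mice was lower in epididymal than in subcutaneous fat by log2 differences of −1.50 for Hoxa4, −1.08 for Hoxa5, −1.36 for Hoxa7, −1.65 for Hoxa9, −0.89 for Hoxb2, −1.59 for Hoxb5, −1.68 for Hoxb9, −0.77 for Hoxc4, −1.37 for Hoxc5, −0.69 for Hoxc6, −1.55 for Hoxc8, −0.82 for Hoxc9, −1.18 for Hoxd8 and −1.20 for Hoxd9. The KO effect on HFD was higher in epididymal fat by 0.88 for Hoxa4, 1.26 for Hoxb5, 0.95 for Hoxc5, 0.81 for Hoxc9, 0.94 for Hoxd8 and 1.45 for Hoxd9. In epididymal fat the KO effect was higher on HFD than on chow by 1.39 for Hoxc5, 1.01 for Hoxc6, 1.37 for Hoxc8 and 1.09 for Hoxc9.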

How the results depend on the processing

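Of 176 counts of called Hox genes under the alternatives, 157 lay within 1.5 times the reported count and 19 did not; the cause was not tested. For mInhbe against GFP in subcutaneous fat, where 4 were called, 1 was called with no low-count filter, 9 with limma-voom and 1 with a lymph node score. For HFD against chow in subcutaneous fat, where 8 were called in each genotype, WT mice gave 3 with only the groups compared, and KO mice gave 16 with limma-voom and 13 with only the groups compared. The subcutaneous genotype by diet interaction, where 0 were called, gave 1 with limma-voom and 1 with a lymph node score, and the depot difference of the HFD effect in KO mice, also 0, gave 1 with limma-voom and 1 with only the groups compared. KO against WT on HFD in epididymal fat gave 13 with limma-voom, against 8. HFD against chow in KO epididymal fat, where 9 were called, gave 5 with an epididymis score. With low-epididymis libraries only, the counts were 5 for HFD against chow in WT, 1 for the same in KO, 0 for the epididymal genotype by diet interaction, 9 for the depot difference of the HFD effect in WT, and 8, 10 and 10 for epididymal against subcutaneous fat in KO chow, WT chow and KO HFD; these fits hold fewer libraries, 1 of them in KO chow. Log2 fold changes between depots that changed sign there were those of Hoxa11 (−2.30), Hoxb3 (−0.23) and Hoxb7 (−0.29) in KO HFD, Hoxb6 (−0.36), Hoxb7 (−0.04), Hoxb8 (−0.42) and Hoxd3 (−0.32) in WT chow, and Hoxd10 (−2.72) in KO chow. Of 217 single Hox calls, 214 kept their direction and side of the threshold with DESeq2 and 214 with RLE scaling. With no low-count filter 204 of 217 did, and with limma-voom 191 of 217. With only the groups compared 172 of 193 did, and 163 of 180 without the libraries that stood apart. A lymph node score kept 22 of 26 and an epididymis score 32 of 37. With low-epididymis libraries 59 of 129 were kept. The replicate block kept 205 of 217 and lost 12, and whether its pairs are 1 mouse is not known from the labels. It gave 4 called genes for mInhbe against GFP in subcutaneous fat. For KO against WT on HFD it gave 5 in subcutaneous and 7 in epididymal fat. Between the depots it gave 27 in mInhbe, 25 in GFP and 19 in KO HFD mice. TMM-scaled CPM moved 11 of 331 group means by more than 1 SD. The fit with only the groups compared is the reported one for mInhbe against GFP, an epididymis score could not be fitted beside depot, and epididymal fits of the KO experiment hold none of the libraries that stood apart.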

Other observations

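Members near the limit of detection were seen in few libraries. Hoxb1, a hindbrain gene, reached 1.92 CPM in 1 mInhbe epididymal library and was at 0 in most libraries. The highest values were 0.851 CPM for Hoxa6, 0.759 CPM for Hoxa13, 0.426 CPM for Hoxd1, 0.341 CPM for Hoxc11 and 0.211 CPM for Hoxb13, and Hoxc13 had 1 count in each of KO chow and WT HFD subcutaneous fat.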
